A study of Mus musculus with 4 samples.

Results

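L1cam, Chl1, Nrcam, Nfasc, Cntn2, Cntn1 and Ncam1, 7 genes for immunoglobulin-type adhesion molecules of neurons, were read in 4 mouse cerebellar tumors. The genes were chosen by name, with earlier results of these tumors known, and every probe set to which the platform annotation gives one of these symbols alone was taken. That gave 22 probe sets among the 29304 in the table, and 7 genes among the 13320 with a probe set of their own. Total RNA of each tumor was hybridised to 1 Affymetrix Mouse Genome 430 2.0 array, on which a probe set of short oligonucleotides reads a transcript. All tumors carry the label Chd7-het, come from mice of mixed CD1xC57BL/6 background and are called here tumors 1, 2, 4 and 5 after their labels. The labels name no allele, sex, age or further driver of the tumors, and the series as analysed here has neither normal cerebellum nor another genotype.

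The L1 family, L1cam, Chl1, Nrcam and Nfasc, consists of transmembrane proteins with immunoglobulin and fibronectin type III domains outside the cell and a short tail that binds ankyrin, which ties them to the spectrin skeleton. The contactins Cntn1 and Cntn2 have similar outer domains but sit on the membrane by a lipid anchor, and they bind L1 family members, Ncam1 and proteins of the matrix. In the developing cerebellum L1cam and Cntn2 are known from granule cells that have stopped dividing and extend axons, with Cntn2 (also called TAG-1) marking the inner, postmitotic part of the external granular layer. Ncam1 is made by most neural cells, dividing progenitors included.

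Signals are MAS5 values on the log2 scale, and every level and difference below is on that scale. The floor, the level to which low signals were raised in the tests, was 5.12, and a gene entered the tests if the mean of a probe set reached 5.87, the median over all probe sets. Of the probe sets, 59.1% to 61.3% lay above the floor on an array. Tumor 1 stood apart from the rest over all genes: over 8498 genes (no independent replicates), Pearson's r was 0.946 to 0.957 for pairs with tumor 1 and 0.963 to 0.984 for the other pairs. The brighter probe set of Chd7, which encodes a chromatin remodeller, read 8.77, 8.66, 8.48 and 8.60 in tumors 1, 2, 4 and 5, and no sample of another genotype could check the label. Atoh1, the defining factor of granule cell progenitors in the cerebellum, read 9.92, 10.54, 10.81 and 10.90. With 1 array per tumor there is no error for a single tumor, so the SD given below is the spread between tumors. In bulk RNA, fewer cells of a type and less RNA per cell cannot be told apart.

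RefSeq start-site windows on GRCm38.p6 matched 6 of the 7 genes. The 250 bases before the start are shown for L1cam, Chl1 and Cntn2, the 3 genes whose signal spanned 1 unit or more over the tumors, with the L1cam start that lies farther upstream of 2 listed. Capitals mark the E-box CANNTG, the core that basic helix-loop-helix factors such as Atoh1 bind, and the GC box GGGCGG on either strand.
L1cam, chrX:73880835-73881084, minus strand: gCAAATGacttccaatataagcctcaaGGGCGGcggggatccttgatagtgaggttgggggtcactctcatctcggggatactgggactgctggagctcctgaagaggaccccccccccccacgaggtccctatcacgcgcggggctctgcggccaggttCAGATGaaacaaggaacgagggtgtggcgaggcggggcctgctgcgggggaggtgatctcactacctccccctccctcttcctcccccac
Cntn2, chr1:132542941-132543190, minus strand: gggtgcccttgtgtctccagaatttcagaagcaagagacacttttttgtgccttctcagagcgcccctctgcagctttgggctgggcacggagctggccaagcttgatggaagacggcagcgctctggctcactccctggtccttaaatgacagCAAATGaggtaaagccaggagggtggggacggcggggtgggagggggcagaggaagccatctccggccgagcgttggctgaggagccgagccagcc
Chl1, chr6:103510626-103510875, plus strand: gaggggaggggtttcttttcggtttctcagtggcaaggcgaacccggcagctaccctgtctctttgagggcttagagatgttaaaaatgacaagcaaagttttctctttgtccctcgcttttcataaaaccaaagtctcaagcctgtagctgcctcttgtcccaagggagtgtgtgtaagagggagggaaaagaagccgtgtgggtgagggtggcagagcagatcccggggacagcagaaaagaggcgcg
The L1cam window held 2 E-boxes and 1 GC box, the Cntn2 window 1 E-box and no GC box, and the Chl1 window neither. Of 32851 windows of this length, 66.2% held an E-box and 32.7% a GC box, and no motif overlapped the other in these windows. A match describes letters only.

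L1cam, the founding member of its family and a promoter of axon growth and bundling, varied most. Its single probe set, 1450435_at, read 8.99 in tumor 1, against 5.98, 6.45 and 5.66 in tumors 2, 4 and 5. Tumor 1 lay 2.54 above the next tumor, while the other 3 spanned 0.79. On the linear scale the signals were 508.8 in tumor 1 and 63.1, 87.3 and 50.6 in tumors 2, 4 and 5, a ratio of 7.79 between tumor 1 and the mean log2 signal of the rest. All 4 readings were above the floor. Since tumor 1 stood out for L1cam and Cntn2 in the results known when the genes were chosen, the differences of tumor 1 are described for all 7 genes and not tested.

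Chl1, the close homologue of L1 that acts in neuronal migration and survival, had a similar order with a smaller span. Probe set 1435190_at read 8.54 in tumor 1, against 7.15, 7.54 and 7.33 in tumors 2, 4 and 5 (mean 7.64 ± 0.62, SD, n = 4). Tumor 1 was 1.00 above tumor 4, the next, and 1.20 above the mean of the other 3. The other 2 Chl1 probe sets differed from it. Probe set 1417795_at lay close to the floor, with 5.18 in tumor 1 and 5.05, 5.46 and 4.49 in tumors 2, 4 and 5, so tumor 4 was the highest there. Probe set 1443713_at lay between 0 and 2.41, far under the floor.

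Nrcam, a receptor of axon guidance that also clusters sodium channels, was more even. Its brighter probe set, 1434709_at, read 8.34 in tumor 1, against 7.99, 8.08 and 8.13 in tumors 2, 4 and 5 (8.13 ± 0.15, SD, n = 4). The next, 1430583_at, read 7.68 in tumor 1, against 6.72, 7.04 and 7.32 in tumors 2, 4 and 5. Both put the tumors in the same order, 1, 5, 4 and 2 from high to low, though the second spanned 0.96 and the first 0.36. The remaining 2 Nrcam probe sets were below the floor in all tumors.

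Nfasc, which encodes neurofascin of the axon initial segment and of nodes of Ranvier, was near the floor. Probe set 1436205_at read 6.14 in tumor 1, against 5.15, 5.49 and 5.17 in tumors 2, 4 and 5, and 1456068_at read 4.65 in tumor 1, against 4.79, 5.11 and 4.64. With means of 5.49 and 4.80, neither reached the filter, so Nfasc is the 1 gene of the 7 that entered no test. The first probe set was highest in tumor 1 by 0.64 and the second was highest in tumor 4. Nfasc lies next to Cntn2 on chromosome 1, with 1 gene model, Gm51646, listed between them.

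Cntn2 was higher in tumor 1 on all 3 of its probe sets. Probe set 1435165_at read 8.42 in tumor 1, against 7.43, 7.26 and 7.21 in tumors 2, 4 and 5. Probe set 1435166_at, whose mean of 5.87 fell just short of the filter, read 6.55 in tumor 1, against 5.52, 5.74 and 5.66. The third, 1456962_at, read 6.55 in tumor 1, while tumors 2, 4 and 5 lay under the floor at 4.63, 4.55 and 4.78. Tumor 1 exceeded the mean of the others by 1.12, 0.91 and 1.90. The other 3 tumors spanned only 0.22, 0.22 and 0.23 on these probe sets, so among them Cntn2 was nearly level.

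Cntn1, which binds Ptprz1 and tenascin R and is made by neurons and by cells of the oligodendrocyte lineage, had another order. Probe set 1452981_at read 9.12, 9.02, 8.63 and 8.24 in tumors 1, 2, 4 and 5, and 1449563_at read 8.52, 8.22, 8.01 and 7.72. On both, tumor 2 came next to tumor 1 (0.10 and 0.30 below it) and tumor 5 was the lowest, 0.88 and 0.80 below tumor 1. The dimmest probe set, 1459197_at, read 5.88, 5.17, 5.43 and 5.54, with tumor 2 at the bottom.

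Ncam1, the classical neural cell adhesion molecule, hardly varied where it was bright. Probe set 1426865_a_at read 9.78 in tumor 1, against 9.70, 9.64 and 9.69 in tumors 2, 4 and 5 (9.70 ± 0.06, SD, n = 4). Probe set 1426864_a_at spanned 0.21 (9.32 ± 0.09, SD, n = 4) and 1450437_a_at 0.40 (7.05 ± 0.17, SD, n = 4). Each of these 3 was highest in tumor 1, by 0.05 to 0.23 over the next tumor. The last 3 Ncam1 probe sets lay below the floor throughout and had tumors 1, 4 and 5 at the top.

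**Figure D1:**
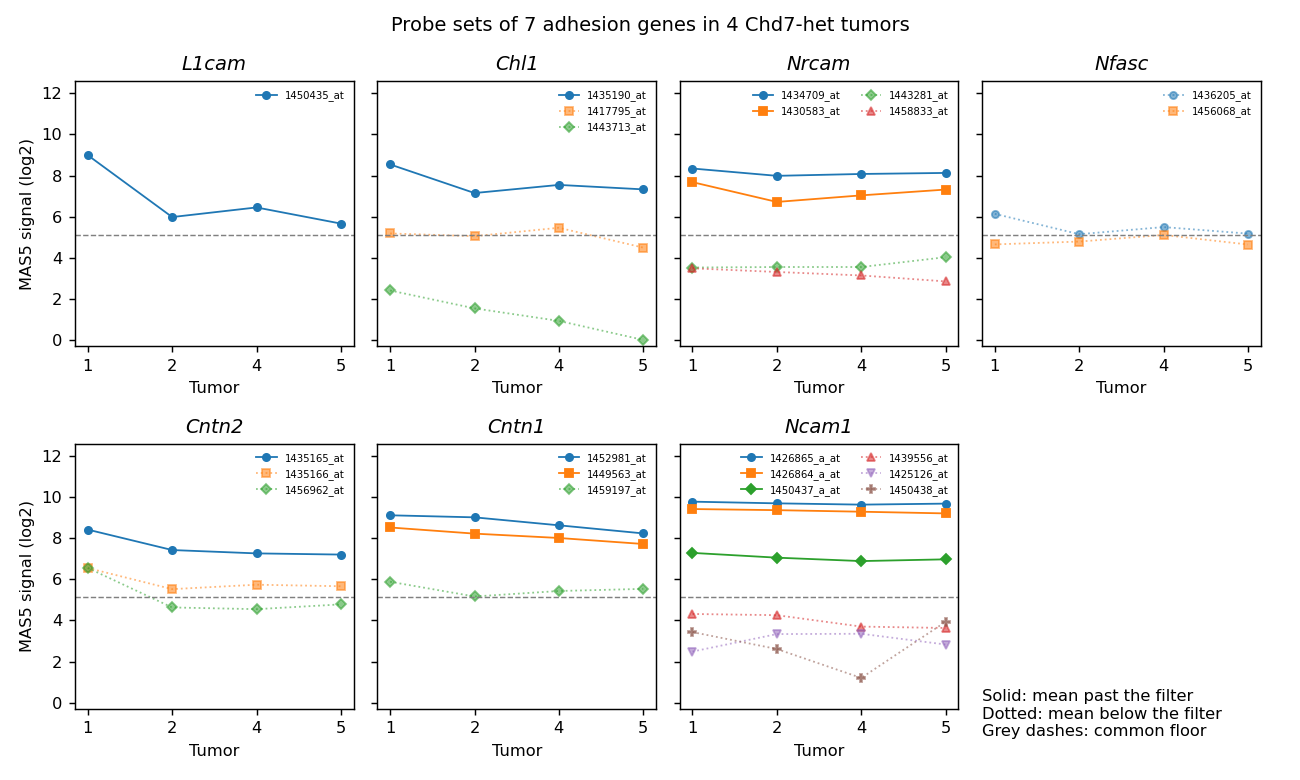
MAS5 signal (log2) of all 22 probe sets in tumors 1, 2, 4 and 5, with a panel for each gene and a line joining the readings of a probe set. L1cam spans 3.33 and the brightest Ncam1 probe set 0.14, and all 10 probe sets past the filter (solid) are highest in tumor 1.

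Of the 22 probe sets, 10 passed the filter, 7 were below the floor in every tumor, and 17 were highest in tumor 1. The 6 genes past the filter also passed it when tumor 1 was left out. At their brightest probe set, 6 of 6 were highest in tumor 1, whereas 23.5% of the 8498 genes tested were. Their median difference of tumor 1 from the other 3 was 0.81, and that of all genes -0.04. Of the 6 genes, 3 were higher by 2-fold or more in tumor 1, as were 1.81% of the genes tested, and 2.26% differed that much in either direction. At 2-fold or more and a Benjamini-Hochberg adjusted p under 0.05 in limma, 110 genes or 1.29% passed in tumor 1. These values went into the choice of the genes and support nothing further.

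Among tumors 2, 4 and 5 alone, these genes were about as even as others. Without tumor 1 the median range over the tumors was 0.31 for the 6 genes and 0.29 for all genes tested, and 0 of the 6 spanned 1 unit, against 1.71% of all. With tumor 1 included, the median ranges were 1.05 for the 6 genes and 0.38 for all.

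Tumors 2, 4 and 5 were each tested against the other 3 in the limma fit over all genes. Of 18 such tests of the 6 genes, 0 passed. One had an unadjusted p under 0.05, that of Cntn1 in tumor 5 (difference -0.69, SE 0.23, adjusted p = 0.957), and the lowest adjusted p was 0.797. Across all genes 0% passed in each of these 3 fits, where 496, 47 and 306 genes of tumors 2, 4 and 5 had an unadjusted p under 0.05. Tumor 1 widens the spread in all of them.

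The same tests were run without tumor 1, each tumor then against the other 2, and passed 0.342%, 0.0825% and 0.554% of 8489 genes in tumors 2, 4 and 5. None of the 6 genes spanned 1 unit among tumors 2, 4 and 5, so none could reach 2-fold. Their 18 tests could therefore not pass, whatever the p-value. L1cam and Cntn1 had the widest differences, and those of Cntn1 share the same readings. L1cam in tumor 4 was 0.63 above the mean of tumors 2 and 5. Cntn1 in tumor 2 was 0.59 above the mean of tumors 4 and 5 (SE 0.17). Cntn1 in tumor 5 was 0.59 below the mean of tumors 2 and 4 (difference -0.59, SE 0.21, adjusted p = 0.298), and L1cam in tumor 5 differed by -0.55 (SE 0.25, adjusted p = 0.628). The lone tumor is assumed in these fits to vary like those it is set against.

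The genes whose profile over the 4 tumors was most like that of L1cam, Chl1 and Cntn2 were found by the root mean square difference between centred log2 signals, over 8497 genes. For L1cam the nearest were Car8, a Purkinje cell protein (0.18), Sphkap, a protein that anchors protein kinase A (0.19), Cadps2, which acts in dense-core vesicle release (0.24), Pvalb, the parvalbumin gene of Purkinje cells and interneurons (0.25), and Chn2, a Rac GTPase-activating protein (0.26). Car8 read 10.03 in tumor 1, against 7.08, 7.23 and 6.31 in tumors 2, 4 and 5. Pvalb read 8.94 in tumor 1, against 6.28, 6.90 and 6.29. Only Car8 and Sphkap lay within 0.2 of L1cam.

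Chl1 and Cntn2 had more near profiles, 83 and 123 genes within 0.2. Nearest to Chl1 were Sncb, which encodes beta-synuclein (0.01), Mgst3 (0.01), Mllt11 (0.03), Lynx1, a modulator of nicotinic receptors (0.05), and Rac3, a small GTPase (0.05). Sncb read 6.93 in tumor 1, against 5.57, 5.93 and 5.72 in tumors 2, 4 and 5. Nearest to Cntn2 were the splicing factor gene Rbfox2 (0.03), Mindy2 (0.04), Cyfip2 (0.05), the zinc finger factor gene Myt1 (0.05) and Cd47 (0.05). Rbfox2 read 8.05 in tumor 1, against 7.03, 6.83 and 6.77. The 3 sets of nearest genes had no gene in common. With 4 tumors, near profiles are a description and carry no test.

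**Figure D2:**
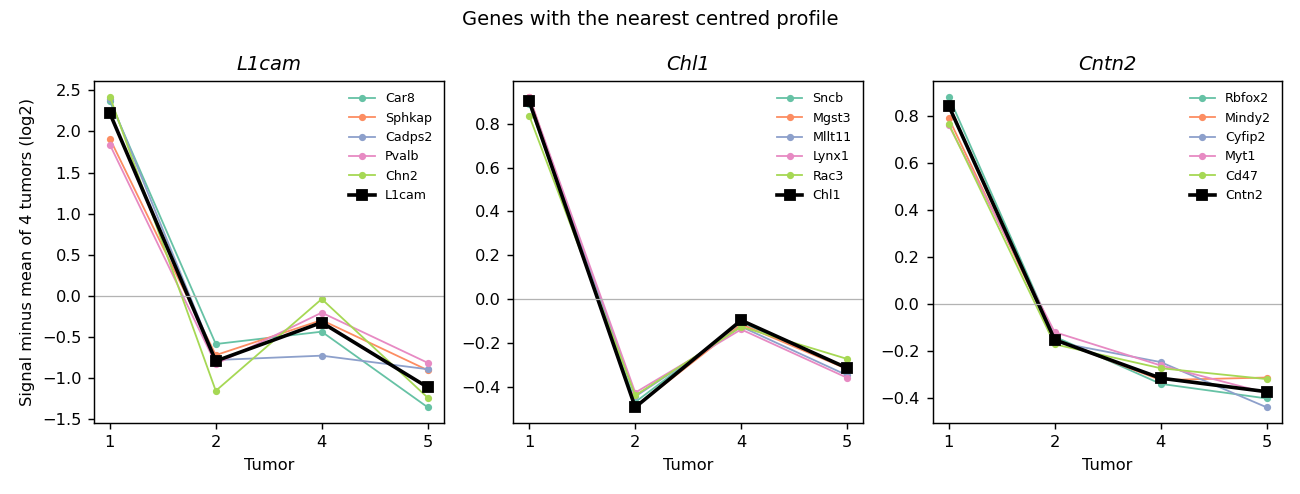
Signal minus the mean over the 4 tumors (log2) of L1cam, Chl1 and Cntn2 (black) and of the 5 genes nearest to each (colours), by tumor. Among tumors 2, 4 and 5, L1cam and Chl1 are highest in tumor 4, whereas Cntn2 is highest in tumor 2.

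Markers of mature neurons and of myelin were also highest in tumor 1. The marker lists were chosen with earlier results of these tumors known, so their calls in tumor 1 are a description. Over all genes tested, 1.05% were called higher in tumor 1 in limma and 0.247% lower. The summed linear signal of 8 genes marking Purkinje cells and inhibitory neurons was 3895 in tumor 1 and 302.2, 562.9 and 286.4 in tumors 2, 4 and 5, with Gad2 under the floor in all. Of the 5 past the filter, 5 were called higher in tumor 1 in limma. The 10 genes of mature granule neurons summed to 7082 in tumor 1 and to 2775, 3111 and 2965 in tumors 2, 4 and 5, with Grin2c under the floor in all, and 4 of 6 were called higher. The 7 myelin genes summed to 5339 in tumor 1 and to 777.7, 1615 and 745.9, with 3 of 4 called higher. Among the called genes of these 3 lists, Calb1, Gad1, Pcp4, Syt1, Chn2, Calb2 and Cldn11 reached the filter through tumor 1 alone. Among the called genes of the 3 lists, only Snap25, of synaptic vesicle fusion, was still called with no filter on the mean. The calls of Car8, Pvalb, Mbp and Ugt8a, which reached the filter without tumor 1, were lost as well. Over all genes the number passing in tumor 1 changed little in that setting, where more genes were tested. The part of these cells in the L1cam, Chl1 and Cntn2 differences was not tested.

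Other lists moved less or the other way in tumor 1. Dividing cells, with 7 genes, summed to 7055 in tumor 1 and to 9499, 10060 and 9768 in tumors 2, 4 and 5, with 0 of 7 called in limma. Granule progenitors, with 10 genes, summed to 12270 in tumor 1 and to 12640, 13740 and 13820. Pax6, a granule lineage factor kept after the last division, was the 1 of these called higher (2.39-fold, adjusted p = 0.0317 in limma, a call lost with no filter on the mean), at 9.78 in tumor 1 and 8.82, 8.48 and 8.26 in tumors 2, 4 and 5. The 5 genes of oligodendrocyte precursors summed to 2525 in tumor 1 and to 3502, 3279 and 3166. The 9 of astrocytes and Bergmann glia summed to 7039 in tumor 1 and to 5828, 6598 and 6784, with Gdf10 and Gjb6 called higher. Of the 9, 7 were higher in tumor 1 and 2 lower. Gfap was 1 of the lower, at 6.55 in tumor 1 and 7.52, 7.69 and 7.40 in tumors 2, 4 and 5 (difference -0.98). Over 12 alternative settings its difference ran from -1.08 to -0.23. Gdf10 reached the filter through tumor 1 alone but was also called with no filter, whereas the call of Gjb6 was lost there (adjusted p = 0.385). The 8 of microglia and macrophages summed to 2066 in tumor 1 and to 2838, 3971 and 2944. Itgam was under the floor in all, and Ptprc was called lower. Ptprc read 4.83 in tumor 1, under the floor, and its difference ran from -1.44 to -0.39 over 9 alternative settings. Of the 7 past the filter, 5 were lower in tumor 1 and 2 higher, Csf1r by 0.07 and Cx3cr1 by 0.06. Lyz2, the brightest in each tumor, read 9.49 in tumor 1 and 10.41, 11.04 and 10.62 in tumors 2, 4 and 5.

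**Figure D3:**
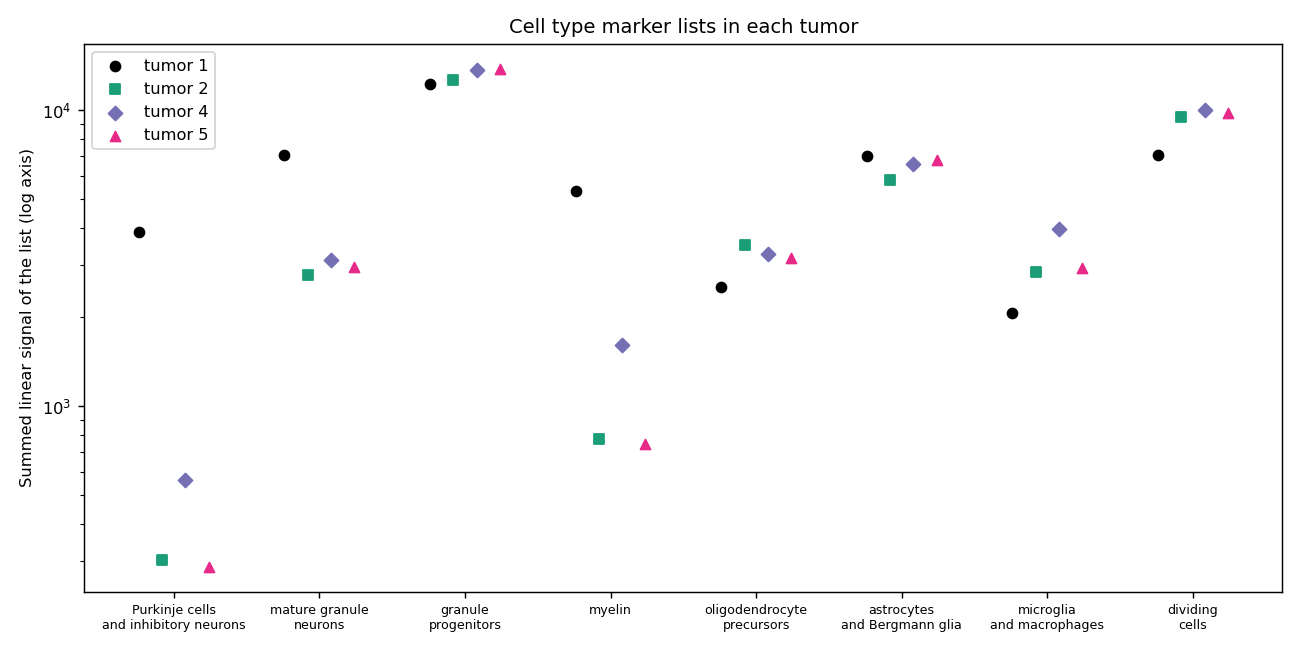
Summed linear MAS5 signal (log axis) of 8 marker lists in tumors 1, 2, 4 and 5, each point a tumor. The Purkinje cell, mature granule neuron, myelin and astrocyte sums are highest in tumor 1, and the other 4 are lowest there.

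The partners of these molecules were read in 4 lists, of 71 genes in all, 64 on the array and 41 past the filter. These lists were chosen with earlier results of the tumors known, so their calls in tumor 1 are a description and show no excess. In tumor 1, 2 of the 41 were called higher in limma and 0 lower, or 4.88%, where 1.05% of all genes were called higher and 0.247% lower. In tumors 2, 4 and 5 none of the 41 was called, nor was any of the 8498 genes in limma, of which 496, 47 and 306 had an unadjusted p under 0.05 in tumors 2, 4 and 5. Partners named below beyond the 2 calls, apart from Ptprg, Vcan, Adam17 and Bace1, were chosen after their values were seen.

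Among other immunoglobulin-type adhesion genes, 9 of 16 measured passed the filter, 6 of them higher in tumor 1 and 3 lower, with a median difference of 0.53. Cadm3, a synaptic cell adhesion molecule of neurons, was called. It read 8.50 in tumor 1, against 7.22, 7.49 and 6.97 in tumors 2, 4 and 5 (difference 1.27, SE 0.23, adjusted p = 0.0356 in limma). Opcml, of the IgLON group, read 7.73 in tumor 1, against 7.06, 6.51 and 5.46, and did not pass (1.39, SE 0.50, adjusted p = 0.290). Thy1, an adhesion glycoprotein of mature neurons, read 6.84 in tumor 1 and lay under the floor in the others, at 4.26, 5.03 and 4.73, so that it missed the filter. Of the relatives closest to the 7 genes, Cntn6 and Ncam2 were under the floor in every tumor, as were Cntn3 and Cntn4.

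Of the cytoplasmic linkers, 16 of 20 measured passed the filter, 12 higher in tumor 1 and 4 lower, with a median of 0.22. Of all genes tested, 43.7% were higher in that tumor. Ank1, ankyrin R, first known from red blood cells, was called. Its signal was 7.16 in tumor 1, against 5.87, 6.12 and 5.87 in tumors 2, 4 and 5 (difference 1.21, SE 0.22, adjusted p = 0.0402 in limma). Ank2, the ankyrin along axons, read 9.25 in tumor 1, against 8.56, 8.35 and 8.33. Its difference of 0.83 (SE 0.17) was under 2-fold, so it could not be called. Ank3, ankyrin G of the axon initial segment, read 10.33 in tumor 1 and 10.21, 10.40 and 10.43 in the others. Sptan1, alpha spectrin, differed by 0.66, Gap43 of growth cones by 0.76 and Dcx, the microtubule protein of migrating neurons, by 0.46. These differences were under 2-fold as well.
Both calls were lost with no filter on the mean (adjusted p = 0.282 for Cadm3 and 0.157 for Ank1), and in 3 further settings for Cadm3 and 4 for Ank1.

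Partners outside the cell had no call. Of 18 measured genes, 10 passed the filter, with a median of 0.01 in tumor 1 and 0.26 in tumor 2, where 8 of 10 were higher. Over all genes tested, the median in tumor 2 was -0.02 and 47.2% were higher. Vcan, the proteoglycan versican, read 7.03, 7.67, 7.03 and 5.80 in tumors 1, 2, 4 and 5. Ptprg, a receptor phosphatase that binds contactins, read 8.38, 9.31, 8.57 and 8.38, and without probe sets of an _s_at or _x_at suffix its difference in tumor 1 turned from -0.38 to 0.20. Ptprz1, a receptor phosphatase that binds Cntn1, read 9.06, 9.33, 8.72 and 8.75, and Tnr, tenascin R, another ligand, read 5.61, 6.31, 5.74 and 4.73. Cntnap4, of the contactin-associated family, read 6.18 in tumor 1 and 4.01, 4.54 and 3.82, under the floor, in the others.

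Enzymes that modify or shed these molecules had no call. Of 10 measured, 6 passed the filter, 3 higher in tumor 1 and 3 lower, with a median of 0.03 (43.7% of all genes tested were higher). Bace1, a membrane protease that cleaves Chl1, read 8.0 in tumor 1 and 7.54, 7.39 and 7.42 in tumors 2, 4 and 5 (difference 0.54, SE 0.18, adjusted p = 0.253 in limma). Adam17, a sheddase, read 6.94 in tumor 1 and 7.36, 7.19 and 7.68 (-0.47, SE 0.23, adjusted p = 0.522). The enzymes that put polysialic acid on Ncam1 missed the filter: St8sia2 read 5.42 in tumor 1 and 4.60, 4.71 and 4.09 in tumors 2, 4 and 5, and St8sia4 read 5.85 in tumor 1 and 5.21, 5.11 and 4.71. Both were highest in tumor 1, with ranges of 1.33 and 1.13. However, St8sia2 lay under the floor in tumors 2, 4 and 5, and St8sia4 in tumors 4 and 5.

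**Figure D4:**
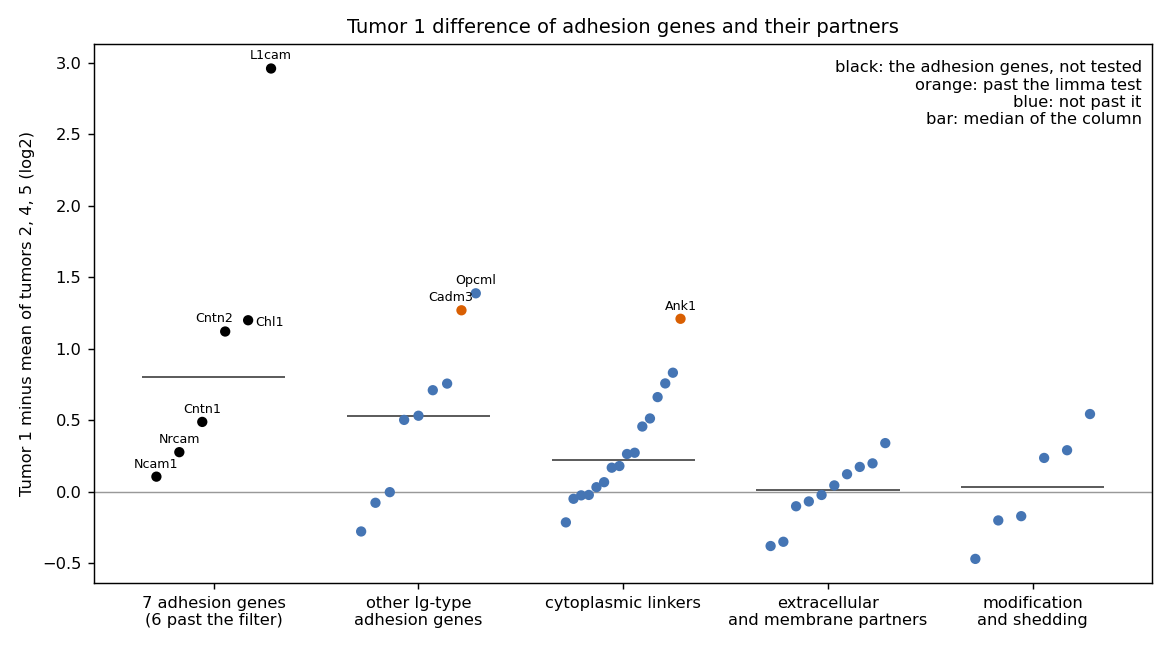
Difference of tumor 1 from the mean of tumors 2, 4 and 5 (log2) for the 6 adhesion genes past the filter and the 4 lists of partners, each point a gene and each bar a column's median. Cadm3 at 1.27 and Ank1 at 1.21 are the 2 partners past the test.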

How the data were processed

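The deposited values are log2 signals made with MAS5, per the submitters' processing notes, a method that summarises and scales each array on its own. No source used here states its version or target. Values were used as deposited. The platform annotation gave 1 symbol for 24679 of 29304 probe sets, and probe sets with several symbols were left unnamed. Signals were raised to the median over arrays of the 40th percentile (5.12), and probe sets with a mean at or above the median, controls left out, were kept. The brightest stood for its gene (8498 genes). The limma package (3.58.1, under R 4.3.3; lmFit, eBayes with intensity trend) set each tumor against the remaining 3, tested on simulated data first. Levels of the 7 genes are printed without the floor. The members and lists were chosen with earlier results of these data known. Named partners are those past the test in tumor 1, up to 4 a list, or else the 2 of widest range. Further partners were named after their values were seen. Of each marker list up to 3 of widest range were taken, and near profiles are the 5 nearest for members spanning 1 unit or more. The number of arrays limits precision. Nothing says whether a tumor number marks a litter or batch, and p-values measure only the spread between these tumors. Protein sequences were not used here.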

Additional observations from a re-analysis of the deposited data

Results flagged for a closer look

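Readings in which 1 tumor lay far from the other 3 were picked out where its gap to the nearest tumor, as a share of the whole range, exceeded Dixon's critical value for 4 samples. Chance passes that value in about 1 of 20 groups, but most genes here were chosen by tumor 1 or by their spread over these tumors, so the shares below are a description and no test. Of the 22 probe sets of the 7 genes, 2 exceeded it. In Cntn2 1456962_at tumor 1 was above the rest (0.884), a gene for which tumor 1 was known to stand out when it was chosen. In Nrcam 1443281_at tumor 5 was above the rest (0.951), with all readings below the floor. Of 44 genes picked from the lists, 4 exceeded it, with tumor 1 high for Sptan1 (0.852) and Gdf10 (0.871) and low for Ptprc (0.938) and Aurka (0.887). Snap25, named above for its call and not among these 44, also exceeded it with tumor 1 high (0.955). Of 14 further genes, 3 exceeded it with tumor 1 high, Cadps2 (0.950), Mindy2 (0.845) and Cd47 (0.864). These were selected for profiles near L1cam or Cntn2, in which tumor 1 is high, so their order restates that choice.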

How the results depend on the processing

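The difference of tumor 1 stayed positive in all 12 or 13 alternatives run for each of the 6 genes. It ranged from 2.78 to 3.17 for L1cam, from 1.10 to 1.30 for Chl1 and from 1.02 to 1.19 for Cntn2. Cntn1 ranged from 0.29 to 0.69, Nrcam from 0.18 to 0.47 and Ncam1 from 0.01 to 0.18, the low end of the last 2 with each array centred on its median. L1cam and Cntn2 had no value with the filter at the 75th percentile, which they missed. Genes passing in tumor 1 numbered 57 with the floor at the 50th percentile, 29 with the filter at the 75th and 177 to 208 with a tumor left out, against 110. In tumor 2, where 0 passed, 1 did with arrays centred on their medians, 1 with the filter at the 75th percentile, 1 with no filter and 0 to 29 with a tumor left out. No filter gave 5 in tumor 4 and 6 in tumor 5, and leaving out a tumor gave 1 to 7 and 1 to 47, the highest each time without tumor 1. The cause was not tested. The median of other adhesion genes in tumor 1 was -0.18, from 2 genes, with the filter at the 75th percentile. With no filter it was 0, a value set by the floor, since 6 of the 16 genes lay below it in every tumor. No paired analysis was possible because all tumors belong to 1 group.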
